A study of Mus musculus with 24 samples.

Results

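The comparison set skeletal stem cells sorted from microfractured joints of adult mice against the same sorted population from uninjured adult joints. Its members were all 3 arrays labelled Adult_MF_mSSC and all 3 labelled Adult_uninjured_mSSC, 6 of the 24 arrays of the series, and every gene of the deposited sorted-cell table, 18052 in all. The cells came from the distal femur of C57BL/6J mice, 9 to 25 weeks old in both groups. The sources used here do not give the age behind each single array, the sex of the mice or the time between injury and sorting. In microfracture the surgeon punctures the bone plate under the cartilage so that marrow and stem cells reach the joint surface. The mouse skeletal stem cell (mSSC) was defined by its surface: positive for the integrin chain ITGAV (CD51), and negative for the blood markers CD45 and TER119, the endothelial receptor TIE2 and the later lineage markers THY1, 6C3 (gene Enpep) and CD105 (gene Eng). Between 500 and 1000 cells were sorted for each sample, and their RNA went through 2 rounds of linear amplification before hybridisation to a 1-colour microarray. The labels number the replicates but do not say that they came from separate animals, so the p-values measure the spread between these samples. A group of 4 arrays from the same population of uninjured mice at postnatal day 3 (P3) is used below for levels only.

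Skeletal stem cells give rise to cartilage, bone and stroma. Cartilage cells are directed by SOX9 with SOX5 and SOX6 and lay down type II collagen and aggrecan, whereas fibrocartilage, the usual repair tissue after microfracture, is richer in type I collagen. Every fibrillar collagen is modified on its way out of the cell: prolyl and lysyl residues are hydroxylated in the endoplasmic reticulum, the ends of the chain are clipped outside the cell, and lysyl oxidases then cross-link the fibre. BMP and TGF-beta ligands push stem cells towards cartilage or bone, and secreted antagonists such as GREM1 and follistatin bind these ligands and limit them.

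Each value below is a MAS5 signal, the linear brightness of a gene's probe set scaled per array, given for replicates 1, 2 and 3 in that order. Differences are microfractured minus uninjured means of log2(signal + 16) ± SE, where 1 unit is a doubling, and adjusted p-values come from limma with Benjamini-Hochberg adjustment over 8309 tested genes. Tested genes had a mean log2 signal over the 6 arrays above the median of all their values. The arrays had nearly equal trimmed means, 490.3 to 492.6, but unequal low ends. The median signal was 226, 211 and 175 in microfractured arrays, against 349, 315 and 321 in uninjured arrays. Olfactory, vomeronasal and taste receptor genes, 66 in the table, which skeletal cells are not known to use, had medians of 47.6, 38.8 and 14.6 in microfractured arrays and of 210.5, 115.7 and 140.1 in uninjured arrays. Dim genes were thus brighter in uninjured arrays, while the 95th percentile was 2401 to 2653 in microfractured arrays and 1743 to 1987 in uninjured arrays. Microfractured arrays correlated at 0.887 to 0.934 with each other, uninjured arrays at 0.832 to 0.902, and arrays of different groups at 0.729 to 0.849 (Pearson, across all genes, which are not independent replicates).

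The genes of the sort were set against the label first. Itgav, the positive marker, had signals of 1217, 1636 and 1163 in microfractured arrays and 659, 1426 and 1066 in uninjured arrays, overlapping groups whose difference did not pass (0.40, adjusted p 0.402). The excluded genes Thy1, Enpep, Eng and Tek, with the VEGF receptors Flt1 and Kdr, lay below the filter and were not tested. Eng had 156, 129 and 104 in microfractured arrays and 509.5, 404 and 442 in uninjured arrays, and Tek, which encodes TIE2, had 142, 124 and 63.6 in microfractured arrays and 1011, 305 and 383 in uninjured arrays. Both were lower in all 3 microfractured arrays, as was Thy1, with 13.1, 16.4 and 4.46 in microfractured arrays and 27.8, 23.1 and 87.1 in uninjured arrays. Enpep went the other way, with 269, 551 and 382 in microfractured arrays and 128, 164 and 222 in uninjured arrays, again without overlap. Ptprc, which encodes the excluded marker CD45, was detected nonetheless, at 791, 528 and 634 in microfractured arrays and 3373, 3146 and 3865 in uninjured arrays. It was lower in all 3 microfractured arrays, with a difference of -2.40 ± 0.24 (adjusted p 0.00249). Defining genes of the skeletal lineage were bright in both groups: Col2a1, Acan, Runx2 and Prrx1 were all tested. Other blood genes fell with Ptprc, and the part of blood cells in the remaining falls was not tested.

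Of the 8309 genes tested, 1154 (13.9%) passed at an adjusted p under 0.05, of which 573 rose (6.90% of those tested) and 581 fell (6.99%). The rises reached a doubling in 403 genes and the falls a halving in 546. The groups did not overlap in 3053 genes (36.7%), and 2626 genes had an unadjusted p under 0.05. The median difference over all tested genes was 0.10. Direction went with brightness: among the 2077 brightest genes 296 rose and 52 fell, with a median difference of 0.40, and among the 2078 dimmest 35 rose and 292 fell, with a median of -0.29. The split depended on the scaling, since rises made up 49.7% of calls here, 39.9% after quantile normalization, 72.9% after subtraction of each array's low end and 92.0% after median-centring, which moved the median difference to 0.73. None of the called genes that were tested again in these scalings changed direction, which were 1145 after quantile normalization, 1133 with the low end subtracted and all 1154 after median-centring. The number of calls also rested on single arrays: it was 380 without microfractured replicate 3, 420, 241 and 363 without uninjured replicates 1, 2 and 3, and 1750 without microfractured replicate 1. A call said to hold in each alternative passed in all of the up to 19 other fits in which that gene was tested.

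**Figure D1:**
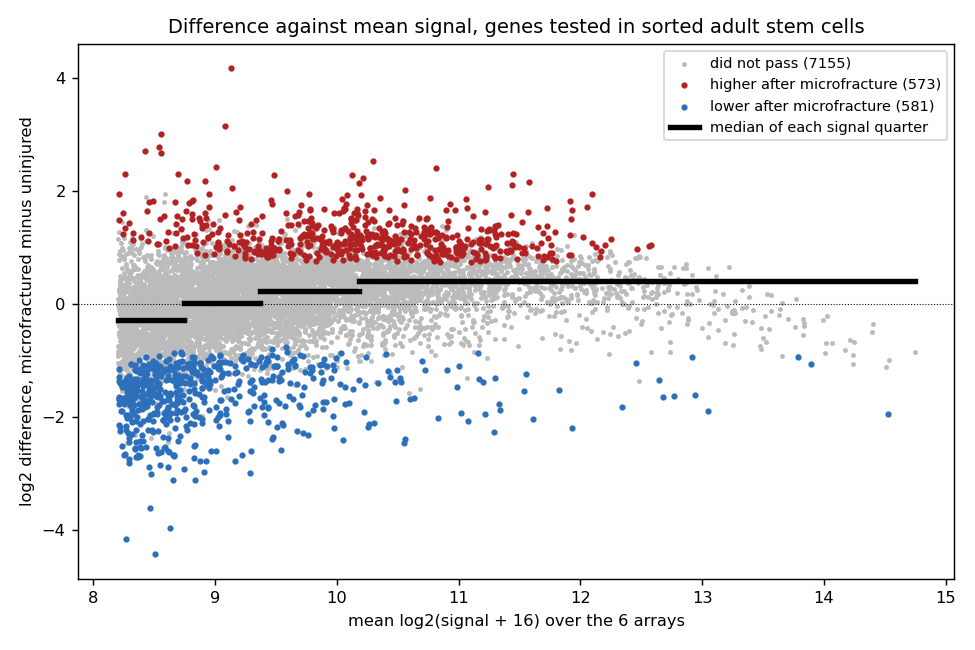
Each point is 1 of the 8309 tested genes, with its mean log2(signal + 16) over the 6 arrays across and its microfractured minus uninjured log2 difference up; coloured points passed at an adjusted p under 0.05. Rises (573) lie mostly among bright genes and falls (581) mostly among dim ones.

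The 12 largest rises among called genes with a bright microfractured mean were led by a metal transporter and a lipid receptor. Over the 6 arrays C1qtnf3, Cth, Aimp1, Tsnax, P3h3 and Lgmn were among the 2078 dimmest genes, with mean log2 signals of 8.26 to 8.70. Slc39a1 encodes ZIP1, which carries zinc into the cell, and its signal was 1277, 3185 and 3259 in microfractured arrays, against 98.0, 101 and 158 in uninjured arrays. The groups were far apart and the difference was 4.17 ± 0.38 (adjusted p 0.00158); the P3 cells had 1337 ± 287 (SD, n = 4). Ptger3, a receptor for prostaglandin E2, had 1870.1, 1589 and 1371 in microfractured arrays and 219, 214 and 96.8 in uninjured arrays. Every microfractured array was above every uninjured one (3.14 ± 0.32, adjusted p 0.00249), and P3 cells had 33.1 ± 19.8 (SD, n = 4). C1qtnf3, a secreted protein also called cartducin or CTRP3 that was found in cartilage, had 1005, 552 and 2062 in microfractured arrays and 104, 158 and 96.9 in uninjured arrays. It too was separated, by 3.00 ± 0.44 (adjusted p 0.00436), with 10239 ± 1452 in P3 cells (SD, n = 4). The other 9 were Cth, an enzyme that makes cysteine (2.77, adjusted p 0.00428), Aimp1, a partner of tRNA synthetases (2.70, adjusted p 0.00725), Tsnax, which binds the nuclease partner translin (2.67, adjusted p 0.00436), the helicase Dhx32 (2.42, adjusted p 0.0295), the lysosomal protease legumain, Lgmn (2.29, adjusted p 0.0128), and 4 collagen genes or enzymes taken up below, Loxl2, P3h3, Plod1 and Col10a1. The call of Dhx32 ended without at least 1 of microfractured replicates 2 and 3 and uninjured replicate 3 (adjusted p 0.0536 to 0.109). The other 11 calls held in each alternative in which the gene was fitted. Uninjured signals of Slc39a1 were close to the receptor gene medians of the same arrays (210.5, 115.7 and 140.1). With the low end subtracted the differences of Slc39a1 and Ptger3 were 6.83 and 5.49, so their size depended on the low end. In that setting C1qtnf3, Cth, Aimp1, Tsnax, P3h3 and Lgmn were not fitted.

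The 12 largest falls included genes of placenta, neurons and blood. Prl3d1, a placental hormone gene, had 458, 19.1 and 13.0 in microfractured arrays and 1774, 1824 and 1473 in uninjured arrays. Nefl, the light neurofilament chain of neurons, had 139.6, 128 and 30.2 in microfractured arrays and 2915, 955 and 655 in uninjured arrays. The uninjured arrays were higher for both, with differences of -4.44 ± 0.84 (adjusted p 0.0113) and -3.62 ± 0.59 (adjusted p 0.00656). The relaxin receptor gene Rxfp1 fell with them (-3.97, adjusted p 0.0126), as did the potassium channel Kcnj2 (-3.12, adjusted p 0.0128), the phosphatase Dusp26 (-3.01, adjusted p 0.0082), and the transcription factors Klf14 (-2.98, adjusted p 0.0082) and Pax4 (-2.88, adjusted p 0.0302), as well as Apol11b (-2.89, adjusted p 0.00436). Blood genes among the 12 included Kel, the Kell blood group antigen (-3.13, adjusted p 0.00249), Trim10, which acts in red cell maturation (-2.93, adjusted p 0.00339), and Mpo, the myeloperoxidase of neutrophil precursors (-3.00, adjusted p 0.0359). The calls of Prl3d1, Kcnj2, Mpo and Pax4 ended without at least 1 of microfractured replicates 2 and 3 and uninjured replicates 1, 2 and 3 (adjusted p 0.0508 to 0.141). Subtraction of the low end ended the call of Pax4 (adjusted p 0.0531). Prl3d1, Nefl, Rxfp1, Dusp26, Kel, Apol11b, Trim10 and Pax4 were among the 2078 dimmest genes, of which 292 fell and 35 rose. In microfractured replicates 2 and 3 Prl3d1 lay below the receptor gene medians of 38.8 and 14.6. The part of the low end in these falls was not tested.

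Enzymes that hydroxylate, trim and cross-link collagen gave rises and no falls. Of the 22 tested members of this list, 8 rose and none fell, with a median difference of 0.85 against 0.10 over all tested genes, and 20 of the 22 differences were positive. The list was bright, with a median of the mean log2 signals of 10.8, and among the 2077 brightest genes 14.3% rose, with a median of 0.40. Among the cross-linking enzymes, Loxl2 (lysyl oxidase-like 2) had 2586, 3036 and 3463 in microfractured arrays and 510.4, 512 and 506 in uninjured arrays. All microfractured arrays exceeded all uninjured ones, by 2.52 ± 0.23 (adjusted p 0.00158), and P3 cells had 1899 ± 334 (SD, n = 4). The related Lox (1.02, adjusted p 0.0556) and Loxl3 (0.87, adjusted p 0.0564) did not pass. Among the lysyl hydroxylases, Plod1 had 1436, 1259.7 and 2110.1 in microfractured arrays and 313, 418 and 222 in uninjured arrays, again separated (2.29 ± 0.30, adjusted p 0.0038), with 2296 ± 288 in P3 cells (SD, n = 4). Plod3, which also glycosylates hydroxylysine, rose by less (1.10, adjusted p 0.0437).

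Among the prolyl hydroxylases, P4ha2, a catalytic chain of prolyl 4-hydroxylase, had 1954, 3049.7 and 2608 in microfractured arrays and 576, 642 and 813 in uninjured arrays. No value overlapped, and the difference was 1.87 ± 0.26 (adjusted p 0.00417), with 3496 ± 446 in P3 cells (SD, n = 4). Its relative P4ha3 also rose (1.28, adjusted p 0.0151), whereas P4ha1 (0.85, adjusted p 0.0521) did not pass. Crtap, the partner of prolyl 3-hydroxylase in collagen, rose (1.05, adjusted p 0.0358), and P3h3, a 3-hydroxylase outside the list, had 691, 778 and 1363 in microfractured arrays and 184, 269.9 and 98.9 in uninjured arrays (2.29 ± 0.39, adjusted p 0.0075). Pcolce, the enhancer of the protease that removes the C-terminal propeptide, had 2407, 3733 and 5026 in microfractured arrays and 1139.8, 1386 and 878 in uninjured arrays (1.66 ± 0.31, adjusted p 0.00982). Adamts2, which removes the N-terminal propeptide, rose as well (0.87, adjusted p 0.041). The collagen chaperone Serpinh1 (HSP47) gave overlapping groups (0.40, adjusted p 0.406), and Ppib, a prolyl isomerase in the 3-hydroxylation complex, did not pass (0.84, adjusted p 0.0519).

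The calls of Loxl2, Plod1, P4ha2 and Pcolce held in each alternative fit. The calls of P4ha3, Plod3, Adamts2 and Crtap ended without at least 1 of microfractured replicates 1 and 3 and uninjured replicates 1, 2 and 3 (adjusted p 0.0536 to 0.154). Of the other scalings, quantile normalization ended the calls of Plod3, Adamts2 and Crtap (adjusted p 0.0805 to 0.177). The number of the 22 that rose was 4 without microfractured replicate 3, uninjured replicate 1 or uninjured replicate 2 and 5 without uninjured replicate 3.

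**Figure D2:**
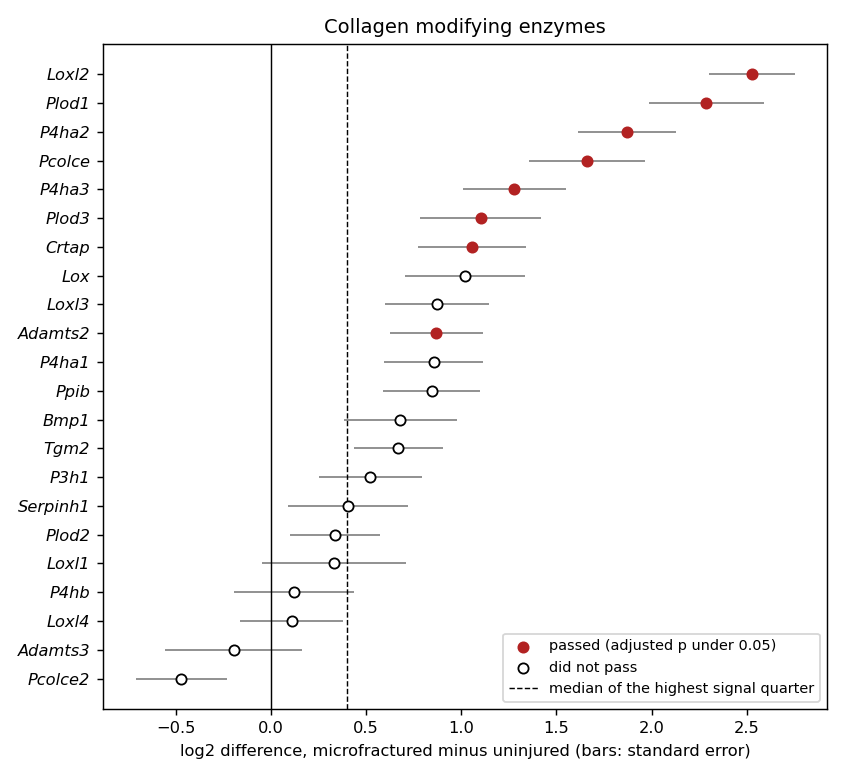
Log2 difference, microfractured minus uninjured, with its standard error for the 22 tested collagen modifying enzymes; filled points passed at an adjusted p under 0.05 and the dashed line is the median of the 2077 brightest genes, 0.40. The 8 filled points lie at 0.87 (Adamts2) or above, and 2 enzymes lie below 0.

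The promoters of P4ha2 and Plod1 are printed because both enzymes rose and the first is a textbook target of hypoxia-inducible factor. The 250 bases before the RefSeq start in GRCm38.p6 were searched on both strands for ACGTG, the core of the hypoxia response element, shown in capitals. P4ha2 (chr11:54100674-54100923, plus strand) holds 1 match, whose first base is 78 bases before the start, and Plod1 (chr4:147936777-147937026, minus strand) holds none.
P4ha2: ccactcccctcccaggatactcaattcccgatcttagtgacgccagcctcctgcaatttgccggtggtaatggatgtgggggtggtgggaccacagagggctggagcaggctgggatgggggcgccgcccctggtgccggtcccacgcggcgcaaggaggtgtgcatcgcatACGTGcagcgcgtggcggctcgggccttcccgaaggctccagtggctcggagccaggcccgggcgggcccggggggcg
Plod1: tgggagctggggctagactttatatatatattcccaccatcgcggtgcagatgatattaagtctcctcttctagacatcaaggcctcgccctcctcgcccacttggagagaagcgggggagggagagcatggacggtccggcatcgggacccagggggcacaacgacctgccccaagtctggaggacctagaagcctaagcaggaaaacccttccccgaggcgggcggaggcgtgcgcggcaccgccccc
The letters ACGTG stand in 26.2% of the 6663 tested genes that have a promoter in the table and in 18.5% of all 27025 genes in it. Among the collagen enzymes that rose, 2 of the 7 with a promoter held it (Plod3 and P4ha2).

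Collagen chains and other fibrous matrix genes gave both rises and a fall. Of 28 tested, 5 rose and 1 fell, with a median difference of 0.17. The list was bright, with a median of the mean log2 signals of 12.4. Among the 2077 brightest genes 14.3% rose and 2.5% fell, with a median of 0.40. Tgfbi, a TGF-beta-induced matrix protein, had 2782, 4189 and 4558 in microfractured arrays and 1270.0, 1656 and 1681 in uninjured arrays. The groups did not overlap (1.29 ± 0.26, adjusted p 0.0138). Col5a1, a chain of the collagen that seeds type I fibrils (1.28, adjusted p 0.0179), Tnn, tenascin N of bone and periosteum (1.16, adjusted p 0.014), Fbn1, the microfibril protein fibrillin 1 (1.12, adjusted p 0.028), and Col6a2, a chain of beaded-filament collagen (1.09, adjusted p 0.0419), rose too. Thbs1, the matrix glycoprotein thrombospondin 1, fell (-1.54, adjusted p 0.0285). Type I collagen itself did not pass: Col1a1 had 12654, 7187 and 9224 in microfractured arrays and 14217, 14453 and 7599 in uninjured arrays, which overlap (-0.30, adjusted p 0.583). The same holds for Col3a1 (-0.11, adjusted p 0.836), Fn1 (-0.51, adjusted p 0.409) and Postn (0.13, adjusted p 0.776). The calls of Tgfbi, Col5a1, Tnn, Fbn1, Col6a2 and Thbs1 ended without at least 1 of microfractured replicates 1 and 3 and uninjured replicates 1, 2 and 3 (adjusted p 0.0515 to 0.13). In turn, quantile normalization ended the calls of Col5a1, Tnn, Fbn1 and Col6a2 (adjusted p 0.0582 to 0.209), and median-centring that of Thbs1 (adjusted p 0.104).

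Of 24 tested matrix proteases and inhibitors, 4 rose and 1 fell, with a median of 0.16. This list was bright too (median of the mean log2 signals 10.6), and among the 2077 brightest genes 14.3% rose, with a median of 0.40. Htra4, a secreted serine protease, had 10210.0, 4437 and 5819.9 in microfractured arrays and 953, 1772 and 1736 in uninjured arrays. It was higher in all 3 microfractured arrays (2.15 ± 0.35, adjusted p 0.00682), and P3 cells had 40.2 ± 17.3 (SD, n = 4). The inhibitor Timp1 had 2303, 2709 and 2945 in microfractured arrays and 1291, 1061 and 980.1 in uninjured arrays (1.25 ± 0.23, adjusted p 0.0103). Stromelysin 1, Mmp3, rose (1.38, adjusted p 0.0114), and so did the collagen-degrading cathepsin Ctsk (1.25, adjusted p 0.0429), whose signals were 7068, 2426 and 4605 in microfractured arrays and 2179.6, 1627 and 1622 in uninjured arrays. Mmp8, the collagenase of neutrophils, fell with the myeloid genes, at 568, 314 and 439 in microfractured arrays and 1539, 1545 and 2047 in uninjured arrays (-1.94 ± 0.28, adjusted p 0.00436). The cartilage-degrading enzymes Adamts5 (-0.31, adjusted p 0.433) and Mmp13 (-0.81, adjusted p 0.0935) did not pass. The calls of Htra4 and Mmp8 held in each alternative. The calls of Timp1, Mmp3 and Ctsk ended without at least 1 of microfractured replicates 1 and 3 and uninjured replicates 1, 2 and 3 (adjusted p 0.0544 to 0.146). Quantile normalization ended the calls of Mmp3 and Ctsk (adjusted p 0.0576 to 0.176).

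Among regulators of cartilage fate, 3 of 9 tested rose and 1 fell, with a median of 0.08. Over all tested genes 6.90% rose and 6.99% fell, with a median of 0.10. The list had a median of the mean log2 signals of 9.66. Among the 2077 genes between 9.37 and 10.18 on that scale 7.94% rose, with a median of 0.22, so the list as a whole did not rise. Sox9, the master regulator of chondrocytes, had 1230.1, 2950.5 and 1758 in microfractured arrays and 613, 913 and 880.2 in uninjured arrays. All 3 microfractured arrays were above the uninjured ones (1.22 ± 0.33, adjusted p 0.0361), and P3 cells had 2777 ± 285 (SD, n = 4). Its partner Sox5 had 1723, 1115 and 1333 in microfractured arrays and 498, 519 and 577 in uninjured arrays (1.34 ± 0.25, adjusted p 0.00972). Nfatc1, a calcium-regulated factor that marks progenitors of articular cartilage, rose (1.01, adjusted p 0.0213), and Foxa2, a factor of hypertrophic chondrocytes, fell (-1.33, adjusted p 0.0416). The calls of Sox9, Sox5, Nfatc1 and Foxa2 ended without at least 1 of microfractured replicates 2 and 3 and uninjured replicates 1, 2 and 3 (adjusted p 0.0508 to 0.125). Sox9 lost its call in 5 of the 6 fits with 1 array left out, Nfatc1 and Foxa2 in 4 and Sox5 in 1. Of the other scalings, quantile normalization ended the calls of Sox9 and Foxa2 (adjusted p 0.0797 to 0.101), and median-centring that of Foxa2 (adjusted p 0.116), and subtraction of the low end that of Foxa2 (adjusted p 0.131).

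Cartilage matrix genes gave 1 call. None of 22 tested cartilage matrix genes rose and 1 fell, Cytl1, a secreted protein of chondrocytes (-1.07, adjusted p 0.0338), with a median of -0.23. Acan, aggrecan, had 8528, 8042 and 8383 in microfractured arrays and 7073, 7329.5 and 5400.5 in uninjured arrays, separated groups whose difference of 0.35 ± 0.24 did not pass (adjusted p 0.358). Col2a1 had 14058, 10555 and 12141 in microfractured arrays and 14619, 18802 and 11328 in uninjured arrays, overlapping and not passing (-0.26 ± 0.28, adjusted p 0.568). Hapln1, the link protein (-0.01, adjusted p 0.995), Comp (-0.19, adjusted p 0.793) and Prg4, the lubricin of the joint surface (-0.82, adjusted p 0.114), likewise overlapped. The call of Cytl1 ended without at least 1 of microfractured replicates 2 and 3 and uninjured replicates 1 and 2 (adjusted p 0.0797 to 0.138). In turn, quantile normalization ended the call of Cytl1 (adjusted p 0.0778), and median-centring that of Cytl1 (adjusted p 0.227).

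Genes of hypertrophic cartilage gave 1 rise among 11 tested. Col10a1, the collagen of hypertrophic chondrocytes, had 8075, 7034 and 4105 in microfractured arrays and 806, 2009 and 1177 in uninjured arrays. The groups stood apart by 2.30 ± 0.36 (adjusted p 0.00596), and P3 cells had 3899 ± 771 (SD, n = 4). The rise of Col10a1 held in each alternative, while the list's median was -0.28 and Ihh, the hedgehog ligand of prehypertrophic cells, did not pass (-1.10, adjusted p 0.103). Among 15 tested osteoblast and bone matrix genes 1 rose and 1 fell, with a median of -0.43. The riser was Atf4, a factor osteoblasts need for protein synthesis (1.01, adjusted p 0.0353). Runx2 had 1146, 2279.7 and 2219 in microfractured arrays and 1953, 3298 and 2320.2 in uninjured arrays, which overlap (-0.45, adjusted p 0.361); Sp7 (-0.52, adjusted p 0.28), Alpl (0.06, adjusted p 0.889), Ibsp (-0.12, adjusted p 0.828) and Sparc (-0.90, adjusted p 0.127) did not pass. The call of Atf4 ended without at least 1 of microfractured replicates 2 and 3 and uninjured replicates 2 and 3 (adjusted p 0.0619 to 0.13). Quantile normalization ended the call of Atf4 (adjusted p 0.202).

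TGF-beta pathway genes that passed rose. The BMP pathway gave 2 rises, the ligand Gdf5 and the follistatin-like Fstl1, and 2 falls, the antagonists Grem1 and Fst. Of 15 tested genes of the TGF-beta pathway, 4 rose and none fell, with a median of 0.31. The list was bright, with a median of the mean log2 signals of 10.8, and its median difference lay below the 0.40 of the 2077 brightest genes, of which 14.3% rose. Inhba, whose product forms activin A, had 11362, 6617 and 8304 in microfractured arrays and 2362, 2203 and 2104 in uninjured arrays. It was higher in all 3 microfractured arrays (1.94 ± 0.26, adjusted p 0.0038), and P3 cells had 429 ± 78.9 (SD, n = 4). Tgfb1 had 1843, 1236 and 1644 in microfractured arrays and 541, 751 and 267 in uninjured arrays, also separated (1.67 ± 0.36, adjusted p 0.0155), with 138 ± 49.8 in P3 cells (SD, n = 4). Tgfb2 (0.81, adjusted p 0.0397) and the Smad repressor Ski (0.80, adjusted p 0.0449) rose by less. The call of Inhba held in each alternative, and it was the 1 call left in the list without microfractured replicate 3. The calls of Tgfb1, Tgfb2 and Ski ended without at least 1 of microfractured replicates 1, 2 and 3 and uninjured replicates 1, 2 and 3 (adjusted p 0.0658 to 0.147). Of the other scalings, quantile normalization ended the calls of Tgfb2 and Ski (adjusted p 0.128 to 0.368).

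Of 20 tested genes of the BMP pathway, 2 rose and 2 fell, with a median of 0.30. Those shares were not far from the 6.90% that rose and 6.99% that fell over all tested genes. The ligand Gdf5, which marks the forming joint, had 728, 649 and 451 in microfractured arrays and 275, 136 and 159 in uninjured arrays (1.63 ± 0.34, adjusted p 0.0145). Fstl1, a secreted follistatin-like protein, had 8383, 4776 and 8223 in microfractured arrays and 1896, 2771 and 1970.3 in uninjured arrays (1.66 ± 0.29, adjusted p 0.0082). Both were higher in every microfractured array. Grem1, a BMP antagonist that also marks a skeletal stem cell population, had 167, 180.0 and 112 in microfractured arrays and 768, 604 and 677 in uninjured arrays, and was lower in all 3 (-2.07 ± 0.30, adjusted p 0.00436), with 899 ± 88.3 in P3 cells (SD, n = 4). Fst, follistatin, which binds activin, fell as well (-1.26, adjusted p 0.0146). Bmp2 had 4555, 5874 and 4426 in microfractured arrays and 2729, 3608 and 3894 in uninjured arrays; the groups did not overlap but the difference did not pass (0.54 ± 0.25, adjusted p 0.168). The BMP target Id1 (0.18, adjusted p 0.773), the inhibitory Smad7 (1.07, adjusted p 0.139), the receptor Acvr1 (0.80, adjusted p 0.0515) and Bmp4 (-0.12, adjusted p 0.874) did not pass either. The calls of Fstl1 and Grem1 held in each alternative in which they were fitted. The calls of Gdf5 and Fst ended without at least 1 of uninjured replicates 2 and 3 (adjusted p 0.0542 to 0.0699). In turn, median-centring ended the call of Fst (adjusted p 0.112), and subtraction of the low end that of Fst (adjusted p 0.0776).

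**Figure D3:**
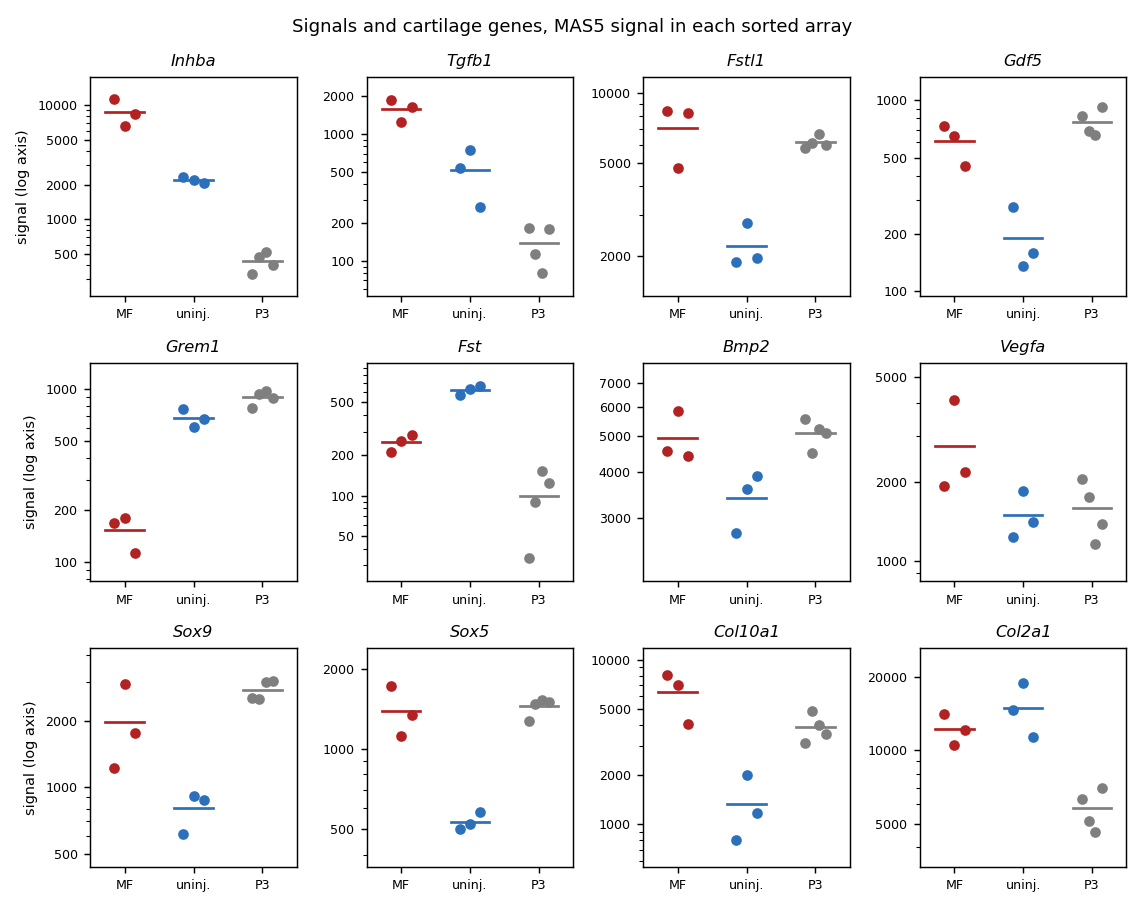
MAS5 signal on a log axis in each microfractured (MF), uninjured and P3 array for 12 ligand, antagonist and cartilage genes; points are arrays and bars are means. Inhba, Tgfb1, Gdf5, Fstl1 and Sox9 are higher, and Grem1 lower, in all 3 microfractured arrays, while Col2a1 overlaps.

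Other signalling lists gave few calls. None of the 3 tested VEGF pathway genes, of 10 in the table, passed; Vegfa had 1939, 4109 and 2184 in microfractured arrays and 1238, 1845 and 1408 in uninjured arrays (0.81 ± 0.31, adjusted p 0.109). None of 15 Wnt, 7 hedgehog and 12 FGF pathway genes passed, with medians of -0.13, -0.68 and 0.27; the hedgehog target Gli1 gave -0.89, adjusted p 0.117. Of 5 tested Notch pathway genes, the receptor Notch1 (-1.14, adjusted p 0.0486) and the target Hey1 (-0.86, adjusted p 0.0483) fell. Of 10 IGF pathway genes, Igf2r, which clears IGF2 from the surface, rose (1.10, adjusted p 0.0403), and of 10 imprinted growth genes, the RNA-binding protein Igf2bp2 rose (1.51, adjusted p 0.0276). Among 9 Hox and limb genes Hoxd10 fell (-1.22, adjusted p 0.0142). The calls of Notch1, Hey1, Igf2r, Igf2bp2 and Hoxd10 ended without at least 1 of microfractured replicates 1, 2 and 3 and uninjured replicates 1, 2 and 3 (adjusted p 0.0516 to 0.176). Hey1 lost its call whichever array was left out, and Notch1 and Igf2r lost theirs in 5 of the 6 fits. Quantile normalization ended the calls of Notch1, Hey1 and Igf2r (adjusted p 0.13 to 0.172), and median-centring those of Notch1, Hey1 and Hoxd10 (adjusted p 0.122 to 0.551), and subtraction of the low end those of Notch1, Hey1 and Hoxd10 (adjusted p 0.0523 to 0.273).

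Glycolytic genes rose in part. Of 14 tested, 4 rose and 1 fell, with a median of 0.40. Over all tested genes 6.90% rose and 6.99% fell. This list and that of hypoxia targets had medians of the mean log2 signals of 9.82 and 9.96. Among the 2077 genes between 9.37 and 10.18 on that scale 7.94% rose and 4.67% fell, with a median of 0.22. Tpi1, triosephosphate isomerase, had 1781, 2808 and 2261 in microfractured arrays and 746, 700.0 and 644 in uninjured arrays, which do not overlap (1.67 ± 0.25, adjusted p 0.00436). Slc2a1, the glucose transporter GLUT1, had 1698, 3453 and 3546 in microfractured arrays and 1150.4, 1165 and 924 in uninjured arrays (1.34 ± 0.31, adjusted p 0.0206). It was higher in every microfractured array, and so were Aldoa, aldolase A (1.15, adjusted p 0.0128), and Pkm, pyruvate kinase (1.21, adjusted p 0.0294). Slc2a3, the transporter GLUT3, fell (-1.06, adjusted p 0.0342). Of 12 tested targets of hypoxia, 2 rose, with a median of 0.73: Ero1a, an oxidase that forms disulfides in the endoplasmic reticulum, had 1354, 1693 and 1282 in microfractured arrays and 563, 516 and 539.6 in uninjured arrays (1.38 ± 0.23, adjusted p 0.00701), and the mitochondrial protein Higd1a gave 1.27, adjusted p 0.0128. Hif1a itself did not pass (0.66, adjusted p 0.117). The calls of Tpi1 and Ero1a held in each alternative. The calls of Slc2a1, Aldoa, Pkm, Slc2a3 and Higd1a ended without at least 1 of microfractured replicates 2 and 3 and uninjured replicates 1, 2 and 3 (adjusted p 0.0505 to 0.13). Of the other scalings, quantile normalization ended the calls of Slc2a1 and Pkm (adjusted p 0.0561 to 0.0977), and median-centring that of Slc2a3 (adjusted p 0.274), and subtraction of the low end that of Slc2a3 (adjusted p 0.0755).

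The Slc2a1 promoter is shown because its gene rose and it holds the same hypoxia core (capitals), as do the promoters of Aldoa and Pkm, so 3 of the 4 glycolytic genes that rose have it, beside 26.2% of tested genes. Of the 2 hypoxia targets that rose, Ero1a has it and Higd1a does not. The shares among members of these lists that did not rise were not counted. The window is chr4:119108495-119108744 on the plus strand, with the first base of the match 36 bases before the start.
Slc2a1: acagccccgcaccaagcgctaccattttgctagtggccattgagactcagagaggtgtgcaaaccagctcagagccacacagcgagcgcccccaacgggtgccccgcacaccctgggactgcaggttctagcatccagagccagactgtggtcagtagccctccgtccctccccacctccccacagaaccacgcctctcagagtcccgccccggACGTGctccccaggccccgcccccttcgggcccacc

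Further housekeeping lists had positive medians and few calls. Those of oxidative phosphorylation, secretion, lysosome and proteasome were bright, with medians of the mean log2 signals of 10.8 to 11.4, and among the 2077 brightest genes 14.3% rose, with a median difference of 0.40. Of 23 tested genes of oxidative phosphorylation 2 rose, among them Ndufa9, a subunit of complex I (0.83, adjusted p 0.0449), a share close to the 6.90% of all genes, with a median of 0.57. Of 28 secretory pathway genes, Kdelr3, which returns proteins to the endoplasmic reticulum (1.24, adjusted p 0.0127), and Ssr4, a translocon subunit (1.12, adjusted p 0.0256), rose and Tmed2 fell (-0.86, adjusted p 0.048), again close to the shares of all genes, with a median of 0.54. Among 17 lysosomal genes 5 rose, with a median of 0.44: Npc1, which exports cholesterol (1.08, adjusted p 0.0128), the cathepsins Ctsb (1.15, adjusted p 0.0254) and Ctsz (1.04, adjusted p 0.0401), Grn (1.12, adjusted p 0.027) and Hexa (0.91, adjusted p 0.0495). Among 15 proteasome genes Psmc2 (1.04, adjusted p 0.0218), Psmb6 (0.96, adjusted p 0.0389) and Psma7 (0.92, adjusted p 0.0496) rose, with a median of 0.60. Fdft1, squalene synthase, was the 1 riser among 11 genes of cholesterol synthesis (2.18, adjusted p 0.0363, groups overlapping), a list with a median of 1.16 in which Sqle (1.48, adjusted p 0.0537) did not pass. None of 10 ribosomal protein genes passed. No lysosomal or proteasome gene passed after quantile normalization, and none passed without microfractured replicate 3 or uninjured replicate 2. Without uninjured replicate 1 or 3, 1 lysosomal and no proteasome gene passed. The calls of Ndufa9, Kdelr3, Ssr4, Tmed2 and Fdft1 ended without at least 1 of microfractured replicates 1, 2 and 3 and uninjured replicates 1, 2 and 3 (adjusted p 0.053 to 0.178). Tmed2 lost its call whichever array was left out. In turn, quantile normalization ended the calls of Ndufa9, Kdelr3 and Ssr4 (adjusted p 0.0579 to 0.209), and median-centring that of Tmed2 (adjusted p 0.57), and subtraction of the low end that of Tmed2 (adjusted p 0.0671).

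DNA replication genes that passed fell. Of 18 tested, 5 fell and none rose, all 18 differences were negative and the median was -0.89. Uhrf1, which copies DNA methylation onto new strands, had 392, 264 and 213 in microfractured arrays and 650.3, 714 and 639.8 in uninjured arrays. It was lower in all microfractured arrays (-1.20 ± 0.29, adjusted p 0.0241). The flap nuclease Fen1 (-1.48, adjusted p 0.0213), the ribonucleotide reductase subunit Rrm2 (-1.34, adjusted p 0.0317) and the polymerase Pola1 (-1.15, adjusted p 0.0434) fell with them. These genes were dim, with a median of the mean log2 signals of 8.78, close to the filter at 8.21. Over all tested genes 6.99% fell. Among the 2078 dimmest, with mean log2 signals up to 8.75, 14.1% fell and 1.68% rose, with a median of -0.29. In the next 2077 by brightness 6.74% fell and 3.71% rose, with a median of 0.01. None of the list passed when each array's low end was subtracted and 1 gene did after median-centring, and 1 passed without microfractured replicate 3 or any 1 uninjured array. Blood genes were lower in the same arrays, and their part in these falls was not tested.

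Of 14 tested mitosis genes 1 fell, Nusap1 of the spindle (-1.17, adjusted p 0.0338), while Cdk1 did not pass (0.03, adjusted p 0.952). Among 16 inhibitors of the cycle and targets of p53, Cdkn2b (-1.43, adjusted p 0.0311) and Rbl1 (-0.97, adjusted p 0.0353) fell, and Cdkn1a, the inhibitor p21, did not pass (0.72, adjusted p 0.065). The calls of Nusap1, Cdkn2b and Rbl1 ended without at least 1 of microfractured replicates 2 and 3 and uninjured replicates 1, 2 and 3 (adjusted p 0.0504 to 0.126). Median-centring ended the calls of Nusap1, Cdkn2b and Rbl1 (adjusted p 0.0752 to 0.334), and subtraction of the low end those of Nusap1, Cdkn2b and Rbl1 (adjusted p 0.0616 to 0.135), and quantile normalization those of Cdkn2b and Rbl1 (adjusted p 0.0543 to 0.0646).

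The promoter of Uhrf1 is printed because it holds TTTCGCGC (capitals), the letters of a site for E2F, the factor that switches on replication genes. TTTGGCGC was searched too, each word on both strands, and binding was not tested. Of the 2 starts listed, the match lies before the second, at chr17:56304063-56304312 on the plus strand, with its first base 185 bases before the start.
Uhrf1: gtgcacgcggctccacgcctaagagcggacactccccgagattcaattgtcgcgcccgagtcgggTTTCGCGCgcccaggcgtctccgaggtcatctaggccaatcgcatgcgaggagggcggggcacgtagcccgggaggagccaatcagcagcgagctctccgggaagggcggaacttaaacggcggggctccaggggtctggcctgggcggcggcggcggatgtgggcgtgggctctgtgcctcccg
Either word stands in 1.49% of tested genes with a promoter and in 0.759% of all genes in the table. Of the 4 replication genes that fell and have a promoter, 2 held it (Pola1 and Uhrf1). The share among replication genes that did not fall was not counted, so no link between the word and the falls is shown.

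Inflammatory genes mostly fell where they passed. Of 17 tested cytokine and NF-kB genes 1 rose and 3 fell, where 6.90% of all tested genes rose and 6.99% fell. The list as a whole did not fall: its median was 0.19, with 10 differences positive and 7 negative. Il1b, interleukin 1 beta, had 1797, 1029 and 1415 in microfractured arrays and 4829, 4837 and 4635 in uninjured arrays, and was lower in all 3 (-1.78 ± 0.26, adjusted p 0.00436). Myeloid genes, whose summed signal was 19191 to 49961 in microfractured arrays and 79872 to 117594 in uninjured arrays, were lower in the same arrays, and their part in the falls of cytokines and chemokines was not tested. Its antagonist Il1rn (-1.51, adjusted p 0.00791) and the TNF receptor Tnfrsf1b (-0.90, adjusted p 0.0329) fell too, and the NF-kB subunit Rela rose (1.24, adjusted p 0.0114). Of 9 tested chemokines 5 fell and 1 rose, with a median of -1.18. Ccl3 had 204, 298 and 265 in microfractured arrays and 944, 1127 and 1319 in uninjured arrays (-2.08 ± 0.26, adjusted p 0.0038), and Ccl6 (-1.86, adjusted p 0.0038), both made by myeloid cells, fell alongside Ccl2 (-2.37, adjusted p 0.0249), Cxcl2 (-1.31, adjusted p 0.027) and Cxcl12. The exception was Cxcl1, a neutrophil attractant, with 2764, 7897 and 8637 in microfractured arrays and 966, 1262 and 1889 in uninjured arrays (2.10 ± 0.42, adjusted p 0.0134). The calls of Il1b, Ccl3 and Ccl6 held in each alternative in which they were fitted. The calls of Il1rn, Tnfrsf1b, Rela, Ccl2, Cxcl2 and Cxcl1 ended without at least 1 of microfractured replicates 2 and 3 and uninjured replicates 1, 2 and 3 (adjusted p 0.0503 to 0.119). Of the other scalings, median-centring ended the calls of Tnfrsf1b and Cxcl2 (adjusted p 0.17 to 0.495), and subtraction of the low end those of Tnfrsf1b and Ccl2 (adjusted p 0.0727 to 0.0878).

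Stress lists gave few calls. Of 17 immediate early genes Myc rose (1.06, adjusted p 0.048), and Fos (-0.99, adjusted p 0.0738) did not pass. Of 9 interferon response genes 1 fell, Rsad2, the antiviral protein viperin, with 847, 278 and 395 in microfractured arrays and 1859, 2075 and 2544 in uninjured arrays (-2.20 ± 0.36, adjusted p 0.00701). Of 20 genes of metal and oxidative stress only Slc39a1 passed, and of 13 of the unfolded protein and ATF4 response Atf4 and the chaperone Hsph1 (1.00, adjusted p 0.0332) rose. Ptgs2, an inducible enzyme of prostaglandin synthesis, overlapped between groups (0.98, adjusted p 0.299). The calls of Myc and Hsph1 ended without at least 1 of microfractured replicates 2 and 3 and uninjured replicates 1, 2 and 3 (adjusted p 0.0604 to 0.144). In turn, subtraction of the low end ended the call of Myc (adjusted p 0.0511), and quantile normalization that of Hsph1 (adjusted p 0.137).

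Genes of the sort and of skeletal stem cells gave both rises and falls, and the few marrow stroma genes that passed fell. Of 11 tested genes of the sort and of skeletal stem cells, 4 rose and 2 fell (Ptprc and Grem1). Over all tested genes 6.90% rose and 6.99% fell. Pdpn, podoplanin, had 3555, 1075 and 2026 in microfractured arrays and 622, 576 and 509 in uninjured arrays (1.78 ± 0.38, adjusted p 0.015), and Ly6a (Sca-1; 1.04, adjusted p 0.0338), Nt5e (CD73; 0.93, adjusted p 0.0269) and the protease gene Ctsk rose too. Of 13 tested marrow stroma genes, 4 fell and none rose. The median difference of this list was only -0.12, with 5 differences positive and 8 negative. Lepr, the leptin receptor that marks perivascular marrow stroma, had 239.5, 281 and 182 in microfractured arrays and 555, 914 and 931 in uninjured arrays. Cxcl12, the chemokine that retains blood stem cells, had 1883, 1019.6 and 1042 in microfractured arrays and 2389, 3299.7 and 3020.1 in uninjured arrays. Both were lower in all 3 microfractured arrays (-1.69 ± 0.30, adjusted p 0.00882, and -1.18 ± 0.29, adjusted p 0.0263), and the niche factor Kitl (-1.01, adjusted p 0.0269) and the transcription factor Ebf3 (-0.90, adjusted p 0.0423) fell with them. Pdgfra (0.85, adjusted p 0.141) and Prrx1 (0.41, adjusted p 0.293), found widely in skeletal mesenchyme, did not pass. The calls of Pdpn, Ly6a, Nt5e, Lepr, Cxcl12, Kitl and Ebf3 ended without at least 1 of microfractured replicates 2 and 3 and uninjured replicates 1, 2 and 3 (adjusted p 0.0536 to 0.134). Quantile normalization ended the calls of Ly6a, Nt5e and Ebf3 (adjusted p 0.0761 to 0.103), and median-centring those of Cxcl12, Kitl and Ebf3 (adjusted p 0.172 to 0.474), and subtraction of the low end those of Kitl and Ebf3 (adjusted p 0.0848 to 0.164).

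Blood genes were present in both groups despite the sort, and lower in the microfractured one. In a population with several cell types, fewer cells of a type and less RNA per cell cannot be told apart. Of 14 tested myeloid genes (23 in the table) 11 fell and none rose, with a median of -1.64. Lyz2, the lysozyme of macrophages and neutrophils, had 8558, 2497 and 3932 in microfractured arrays and 18939, 15339 and 14976 in uninjured arrays (-1.89 ± 0.40, adjusted p 0.0147), with 668 ± 82.3 in P3 cells (SD, n = 4). Fcer1g, a signalling chain of Fc receptors, had 1018, 862 and 799 in microfractured arrays and 3037, 4035 and 3934 in uninjured arrays (-2.02 ± 0.23, adjusted p 0.00339). Within the microfractured group replicate 1 carried the most myeloid RNA: Mpo had 1178, 108 and 57.3 in microfractured arrays and 1829, 2288 and 1279 in uninjured arrays. Without that array 13 myeloid genes fell, without microfractured replicate 3 there were 4, and without uninjured replicates 1, 2 and 3 there were 4, 2 and 9.

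Red cell genes also fell. Of 9 tested erythroid genes (15 in the table) 8 fell, with a median of -2.27, and their sum over the 15 ranged from 4281 to 7121 in microfractured arrays and from 18465 to 24485 in uninjured arrays. Car1, carbonic anhydrase 1, had 267, 264 and 167 in microfractured arrays and 865, 1390.1 and 1533 in uninjured arrays (-2.35 ± 0.31, adjusted p 0.0038). Alas2, which starts heme synthesis, had 1088, 758 and 746 in microfractured arrays and 2972, 2564 and 2826 in uninjured arrays (-1.69 ± 0.24, adjusted p 0.00436). Slc4a1, the anion exchanger of the red cell membrane (-2.24, adjusted p 0.00813), Car2 (-2.19, adjusted p 0.00436) and Rhag (-2.27, adjusted p 0.00641) fell in the same arrays. At least 8 erythroid genes fell whichever array was left out, and with each array's low end subtracted 10 myeloid and 8 erythroid genes fell. After median-centring 7 myeloid and 8 erythroid genes fell.

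Most genes of lymphocytes, vessels and unrelated tissues were too dim to test, and their means lay lower in microfractured arrays. The lymphocyte list had lower means in 18 of 19 genes, with Ms4a1 (CD20) the 1 call (-2.31, adjusted p 0.00541). The endothelial list had lower means in all 19, with summed signals of 1435 to 2267 in microfractured arrays and 4403 to 7828 in uninjured arrays. Lists with no known place in a skeletal sort went the same way: skeletal muscle in 10 of 11 genes, neurons and glia in 11 of 13, hepatocytes in all 11 and placental and pituitary hormones in all 13. The hepatocyte sum was 1265 to 2815 in microfractured arrays and 5649 to 7452 in uninjured arrays. These genes share their dim range with the receptor genes, which were also lower in microfractured arrays, and the part of the low end was not tested. No marker of any of these cell types was listed at 0, but a signal above 0 does not show that a gene was detected. Cd3e of lymphocytes had 12.4, 10.8 and 3.74 in microfractured arrays, below the receptor gene medians of 47.6, 38.8 and 14.6. Both tested megakaryocyte genes fell (Itga2b, -1.21, adjusted p 0.0338, and Treml1, -1.41, adjusted p 0.0223), and none of 3 tested adipocyte genes passed. Of 14 osteoclast genes 9 had a lower mean in microfractured arrays, with a median difference of -0.47. Of the 6 tested, Ctsk and Nfatc1 rose, and Acp5 had 1628, 231 and 963 in microfractured arrays and 458, 333 and 191 in uninjured arrays, overlapping (1.18, adjusted p 0.203). Of 11 genes of pericytes and smooth muscle 9 had a lower mean in microfractured arrays, with a median of -1.38. Of the 5 tested, the pericyte gene Rgs5 rose (1.67, adjusted p 0.0213) and Acta2, smooth muscle actin, fell (-1.61, adjusted p 0.0164), while among 19 contractile genes the adhesion protein Vcl rose (0.95, adjusted p 0.04). The calls of Rgs5, Acta2, Vcl, Itga2b and Treml1 ended without at least 1 of microfractured replicates 1 and 3 and uninjured replicates 1, 2 and 3 (adjusted p 0.0526 to 0.144). Of the other scalings, quantile normalization ended the calls of Vcl, Itga2b and Treml1 (adjusted p 0.0824 to 0.183), and median-centring those of Itga2b and Treml1 (adjusted p 0.065 to 0.167), and subtraction of the low end those of Itga2b and Treml1 (adjusted p 0.111 to 0.122).

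**Figure D4:**
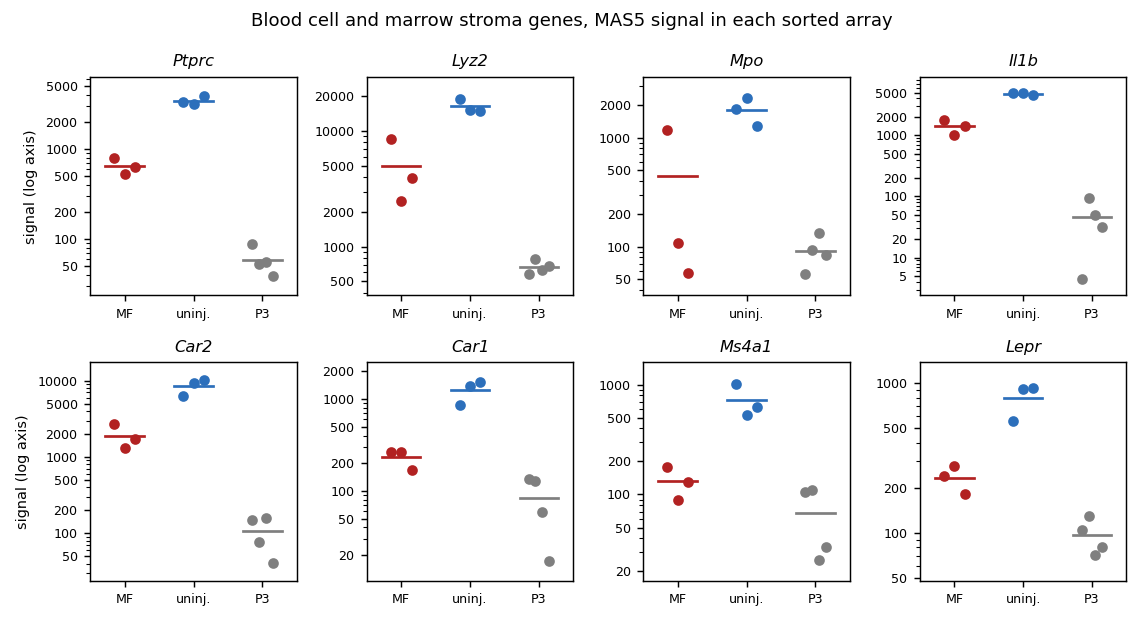
MAS5 signal on a log axis in each microfractured (MF), uninjured and P3 array for 8 blood and marrow stroma genes; points are arrays and bars are means. Every microfractured array lies below every uninjured array for all 8, and for Mpo microfractured replicate 1 (1178) lies close to the lowest uninjured array (1279).

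**Figure D5:**
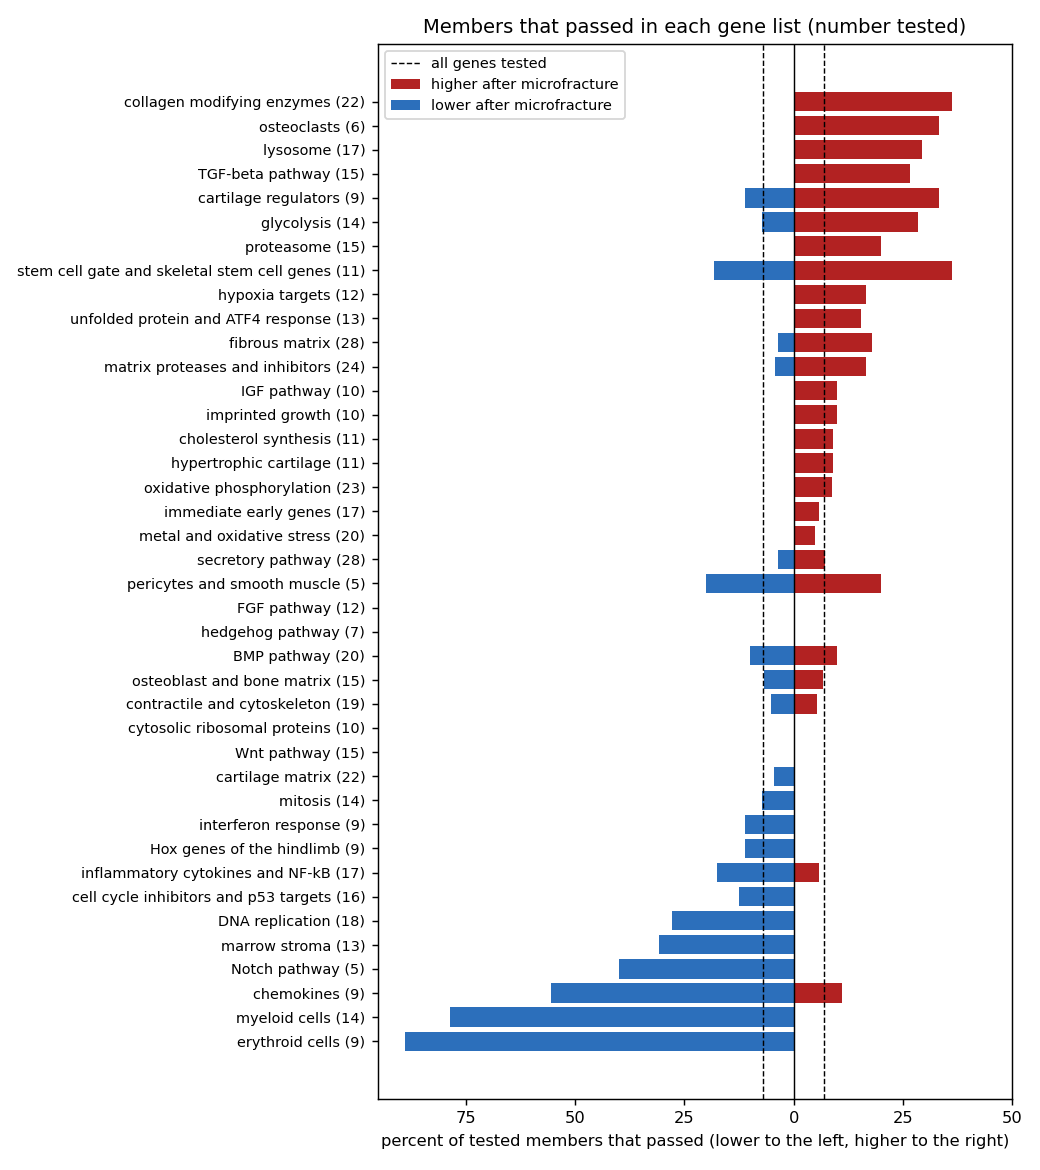
For each gene list with 5 or more tested members, the percentage that rose (right) or fell (left) at an adjusted p under 0.05; lines mark the shares over all tested genes, 6.90% higher and 6.99% lower. Collagen modifying enzymes, with 8 of 22 higher, and erythroid genes, with 8 of 9 lower, stand far from the lines.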

How the data were processed

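The samples were 1-colour arrays of amplified RNA from sorted mouse cells. The authors deposited 1 linear intensity (MAS5 signal) per gene and array, made with MAS5, per the submitters' processing notes, on a custom probe-set definition, per the deposited table's own label. Neither the version of that definition nor the value the arrays were scaled to is given in the sources used here. Symbols were updated by Entrez number, which matched 17994 of 18052 rows to the RefSeq tables. Signals were taken as log2(signal + 16). Genes whose mean over the 6 arrays was above the median of all their values (log2 8.21, a signal of 279) were tested, 8309 in all, with limma 3.58.1 in R 4.3.3 (lmFit, eBayes with a variance trend), Benjamini-Hochberg adjustment and a threshold of 0.05, on the 6 adult arrays without a block. The P3 arrays stayed out of the fit because their replicates correlated more closely (0.951 to 0.967); including them was an alternative. The fit was tested on simulated data. With 3 arrays a group, the number of arrays limits the precision.

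The deviations of same-numbered microfractured and uninjured arrays from their group means correlated at 0.233, 0.0047 and 0.0749, so the numbers were not taken to pair the samples. No pair of arrays held identical values. Lists are described by counts and medians, with no test of the list. The members, lists and alternatives were chosen with earlier results of these data known. Named genes were the 12 largest rises and falls among called genes with separated groups, a current symbol and a higher-group mean above the 75th percentile of all values, up to 3 called members per list, taken by smallest p, and the genes of the sort with Bmp2, Vegfa, Flt1, Kdr, Sox9, Acan, Col2a1, Col1a1 and Runx2; other list members named were chosen after their values were seen. Promoters are RefSeq's, build GRCm38.p6. Bulk tissue arrays and the treated microfracture groups were not analysed here. A few genes that the naming rule covers are not reported here.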

Additional observations from a re-analysis of the deposited data

How the results depend on the processing

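No called gene that an alternative tested was called there in the opposite direction. The number called was 858 after quantile normalization (342 higher), 4033 after median-centring (3710 higher, 323 lower) and 1150 with the low end of each array subtracted (838 higher, 312 lower). With no filter it was 3708 (806 higher, 2902 lower), with a filter of 3 of 6 arrays above the median 1981 (1266 lower), and with a mean above the 75th percentile 672 (160 lower). With the P3 arrays in the fit it was 2234 (1278 higher, 956 lower), and with array weights 2168 (1116 higher, 1052 lower). Leaving out 1 array at a time gave 241 to 1750 calls, 83 to 853 higher and 134 to 897 lower. Of the 1154 calls, 651 were kept after quantile normalization and 238 without uninjured replicate 2. The fit with the replicate number as a block gave 1495 calls (762 higher, 733 lower), but the numbers are not shown to pair the arrays. Other pseudocounts gave 1124 to 1433 calls, and no variance trend 1092. Calls that ended without the trend included Plod3, Adamts2, Col6a2, Ctsk, Tgfb2, Ski, Ndufa9, Psma7, Hexa, Tmed2 and Vcl. With the P3 arrays in the fit the calls of Mmp3 (adjusted p 0.0791) and Tmed2 (adjusted p 0.0675) ended. Among named genes and called list members, 2781 recomputed results kept their side of the threshold, 446 lost a call and 152 gained one. Several genes not called changed sign. Under quantile normalization these included Col2a1 (0.16), Comp (0.16), Ibsp (0.32) and Alpl (-0.31). Under median-centring they included Col2a1 (0.39), Col1a1 (0.36), Runx2 (0.20), Comp (0.46), Ibsp (0.53), Sp7 (0.13) and Adamts5 (0.34). The causes of these changes were not tested. Dim genes are limited by the unequal low ends of the arrays.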
